A study of Mus musculus with 4 samples.

Results

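Glycolysis splits glucose into pyruvate in the cytosol, and 10 of its enzyme genes were followed along the mouse nephron. They were hexokinases Hk1 and Hk2, phosphofructokinases Pfkl and Pfkm, aldolase Aldoa, Gapdh, phosphoglycerate mutase Pgam2, pyruvate kinase Pkm and lactate dehydrogenase subunits Ldha and Ldhb. They were chosen by symbol from the 32285 genes in the files, and all 10 were found. Aldoa has 2 identifiers, of which the second held 8 UMIs and was not used. In mm10 (GENCODE vM21), the genes lie with Hk1 at chr10:62268855-62379908 (minus strand), Hk2 at chr6:82725025-82774454 (minus strand), Pfkl at chr10:77986947-78010083 (minus strand), Pfkm at chr15:98092589-98132451 (plus strand), Aldoa at chr7:126795234-126800751 (minus strand), Gapdh at chr6:125161715-125166467 (minus strand), Pgam2 at chr11:5801640-5803733 (minus strand), Pkm at chr9:59656368-59679375 (plus strand), Ldha at chr7:46841475-46855627 (plus strand) and Ldhb at chr6:142490249-142507957 (minus strand). The counts are over whole genes. A UMI (unique molecular identifier) counts 1 captured RNA molecule at its 3′ end, so levels are not scaled by gene length.

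The proximal tubule reclaims filtered glucose, makes glucose from lactate and other precursors, and burns mainly fatty acids. The more distal segments are known for carrying the enzymes of glucose breakdown. Hexokinase, phosphofructokinase and pyruvate kinase catalyse the steps that are irreversible in the cell. Lactate dehydrogenase interconverts pyruvate and lactate, and its tetramers are built from the A subunit (Ldha), which dominates in muscle, and the B subunit (Ldhb), which dominates in heart.

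Single-cell RNA-Seq was performed on kidneys of C3H male mice, 1 library per condition. Wild-type (WT) mice and SGLT2 mutant mice (MT in the labels, here SP for the Sweet Pee line, which carries a missense change in Slc5a2) received normal diet (ND) or high-fat diet (HFD, 60% of calories from fat) for 8 weeks from 10 weeks of age, and were 18 weeks old at harvest. The mutation is present in every cell of the SP mice, and the number of mice per library is not given in the sources used here. With 1 library per condition, diet and genotype cannot be told apart from differences between libraries. The libraries held 90728590 to 115117649 UMIs in 13229 to 16385 barcodes, of which 6389 to 9924 were kept as cells. Pairs of libraries shared 54 to 77 barcodes.

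Slc5a2, the mutated gene, was at 614 UMIs per 1000000 UMIs (CPM) on ND and 453 on HFD in WT in early proximal tubule, and 122 and 178 in SP. Both SP libraries were below both WT libraries, although a missense change need not alter the RNA level.

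Cells were assigned to 10 nephron segments by the UMIs of marker genes, none of which is a glycolytic gene. In all, 15477 cells were placed, from 450 thin limb cells to 4186 cells of the thick ascending limb (TAL). The others were early proximal tubule (PT, 2138 cells), late PT (1957), podocytes (1242), distal convoluted tubule (DCT, 1871), connecting tubule (CNT, 1430), principal cells (PC, 1050) and type A and type B intercalated cells (IC-A, 617 and IC-B, 536). Every marker of the 10 segment lists was highest in its own class except 1 of 6 PC markers. The cells were placed by these same markers, so this is no check of the classes. A further 4025 PT cells could not be split into early and late. Mitochondrial genes took 28.5% to 36.0% of UMIs in PT sums and 7.46% to 18.5% in podocyte, thin limb and PC sums. WT-HFD stood apart in the late PT, where 68 of 73 markers of other classes were higher than in WT-ND. Member counts that changed without that library, and the late PT calls, are given with and without it. The difference was not confined to late PT. No class was given to 27.7% of kept WT-HFD cells, against 14.0% to 16.5% in the other libraries. Endothelial markers in IC-B summed to 235 CPM in WT-HFD against 9.63 to 12.45 in the others, and podocyte markers in CNT to 132 against 11.5 to 17.7. In DCT, endothelial markers were at 15.4 to 19.5 CPM in all 4 libraries.

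Segments were compared by edgeR's quasi-likelihood test on UMI sums per segment and library, with the library as a block. The spread of a gene was pooled over all segments and the 4 libraries, which differ in condition. An SE is thus not the spread of 4 libraries in its own comparison, and n = 4 beside it counts libraries. For Gapdh against early PT, the SE was 0.12 in both CNT and DCT. The SDs of its log2 ratios over 4 libraries were 0.34 and 0.11 there. Of the members, 9 could be tested and Hk2 was too sparse. Against early PT, 7 members were higher and 2 lower in TAL, and the same counts were found in DCT, CNT, IC-A and IC-B. In PC, 8 were higher and 1 lower. Among all 11894 genes tested, 63.3% were called in TAL, 61.3% in DCT, 59.6% in CNT, 64% in PC, 61.3% in IC-A and 58.9% in IC-B, so that being called was common. In thin limb 5 members were higher and 2 lower (59.8% of all genes called) and in podocytes 2 and 6 (68.6%). Against late PT, TAL had 7 higher and 2 lower (64.6%). Between neighbours further on, 1 member was higher and 2 lower in DCT than TAL (25.4%). The counts were 2 and 0 for CNT against DCT (17.6%) and 3 and 2 for PC against CNT (35.8%). The remaining comparisons are between cell types, not steps along the nephron. There, 1 member was higher and 5 lower in IC-A than PC (36.1%), and 1 and 0 in IC-B than IC-A (12.2%). The median log2 fold change of the 9 members was 2.03 in TAL against 0.00 for all genes, 1.04 in DCT against -0.02, 1.16 in CNT against -0.01 and 1.27 in PC against 0.00. It was 0.97 in IC-A against -0.03, 1.23 in IC-B against 0.00, 0.72 in thin limb against 0.00 and -0.72 in podocytes against -0.08. Members were chosen with earlier results of these data known, so these counts and medians describe the list and do not test it. Without WT-HFD, thin limb had 6 higher and 2 lower (55.8% of all genes called) and podocytes 2 and 5 (64.5%). DCT against TAL then had 2 and 2 (21.5%), CNT against DCT 1 and 1 (15.5%), and PC against CNT 3 and 3 (32.7%). The counts of higher members without that library were the same in TAL, DCT, CNT, PC, IC-A and IC-B. There, Gapdh in PC and Ldha in IC-A lost their calls. Without WT-ND, Pfkm and Ldha in PC and Ldha in IC-A lost theirs. Thin limb had 4 higher and 2 lower without WT-ND, SP-ND or SP-HFD (53.4%, 54.6% and 53.3% of all genes called). Podocytes had 2 and 4 without SP-ND (65.2%) and 2 and 5 without SP-HFD (64.5%).

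Fold changes depend on how sums are scaled. With total UMIs alone, the median log2 fold change of all genes against early PT was 0.27 in TAL, 0.22 in DCT, 0.24 in CNT, 0.62 in PC, 0.52 in IC-A, 0.48 in IC-B, 0.70 in thin limb and 0.59 in podocytes, where the scaled fit gave -0.08 in podocytes and -0.03 to 0.00 in the others. The counts of members in TAL, DCT and CNT were the same with total UMIs alone. The others became 8 higher and 0 lower in PC, 7 and 1 in IC-A, 7 and 0 in IC-B, 6 and 1 in thin limb, and 3 and 3 in podocytes, so the lower calls of Gapdh in PC, IC-B and thin limb, of Ldha in IC-A and IC-B, and of Pfkl, Pfkm and Aldoa in podocytes depend on the scaling. The fold changes below are from the scaled fit. CPM values are not scaled this way.

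**Figure D1:**
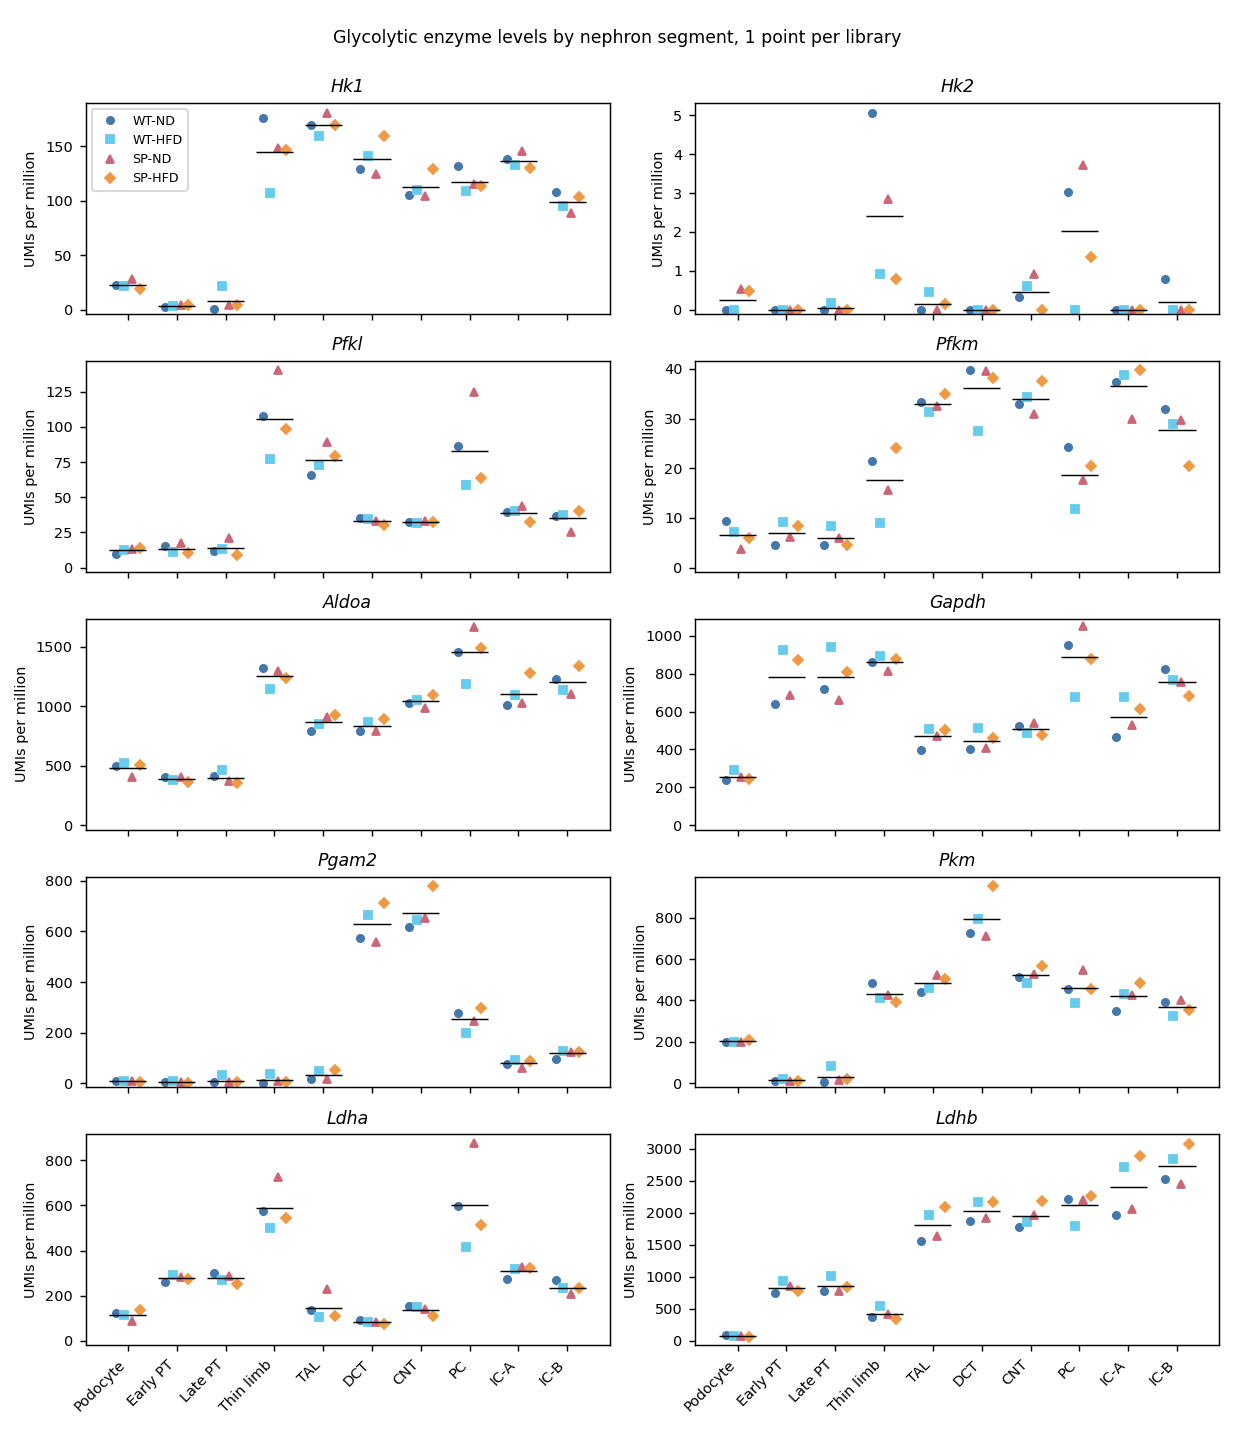
UMIs per 1000000 UMIs (CPM, vertical axis, linear from 0, a scale of its own for each gene) in the 10 nephron segments, with 1 point per library and a line at the mean of 4 libraries. Hk1 and Pkm are near the axis in early and late PT apart from WT-HFD late PT, Pgam2 peaks in DCT and CNT, and Ldha and Ldhb follow different orders.

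Hk1, the hexokinase that phosphorylates glucose in most tissues, was nearly absent from early PT and present in every tubule segment beyond the late PT. In early PT it was at 2.29 CPM on ND and 3.78 on HFD in WT, and 4.26 and 4.15 in SP. In TAL, its highest segment, it was at 170 CPM on ND and 160 on HFD in WT, and 181 and 170 in SP. The 2 segments did not overlap, and the log2 fold change was 5.35 ± 0.35 (SE, n = 4, edgeR adjusted p = 8.05e-16). From TAL down through thin limb, DCT, IC-A, PC, CNT and IC-B the mean fell from 170 to 99.0 CPM, and each segment overlapped the next. By the test, none of the distal segments and cell types compared with each other differed in Hk1 (edgeR adjusted p = 0.394 to 0.473). DCT was nevertheless below TAL in all 4 libraries with no overlap, by a log2 fold change of -0.28 ± 0.25 (SE pooled over all segments). That difference passed the threshold under an alternative setting. Podocytes were between, at 23.0 ± 3.84 CPM (SD, n = 4). A Hk1 UMI was found in 46.2% to 61.1% of DCT cells and 1.78% to 4.18% of early PT cells, or in 10.3% to 15.0% and 0.205% to 0.686% after thinning to 1000 UMIs per cell.

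Hk2, the insulin-responsive hexokinase of muscle and fat, gave 36 UMIs over all segment cells and was not tested. Its highest segment values were 5.06 CPM in WT-ND thin limb, from 4 UMIs, and 3.73 CPM in SP-ND PC, from 7 UMIs. It had 0 UMIs in early PT, DCT and IC-A in all 4 libraries. Immune cells held more, at 44.6 CPM on ND and 27.5 on HFD in WT, and 29.4 and 18.4 in SP. Hkdc1, another hexokinase, was at 12.7 CPM in DCT.

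Phosphofructokinase commits sugar to glycolysis, and its liver (Pfkl) and muscle (Pfkm) forms had different orders. Pfkl was highest in thin limb, PC and TAL. It was at 65.5 CPM on ND and 73.2 on HFD in WT in TAL, and 89.4 and 79.2 in SP, against 35.6, 34.4, 32.9 and 30.3 in DCT. The 2 segments did not overlap, and DCT was lower by a log2 fold change of -1.18 ± 0.14 (edgeR adjusted p = 4.04e-08). Pfkl rose again from CNT to PC, by 0.97 ± 0.16 (edgeR adjusted p = 6.2e-06). Pfkm was level from TAL through CNT, at 33.0 ± 1.55, 36.2 ± 5.90 and 34.0 ± 2.79 CPM (SD, n = 4). From CNT to PC it fell by 1.24 ± 0.20 on the log2 scale (edgeR adjusted p = 5.65e-06), and it was higher again in IC-A by 1.07 ± 0.21 (edgeR adjusted p = 9.7e-05). The 2 forms thus moved in opposite directions between CNT and PC. Pfkm made up 26.4% to 31.0% of phosphofructokinase UMIs in CNT and 7.86% to 14.7% in PC, and Pfkl 24.4% to 28.3% and 45.1% to 55.7%. Pfkp, the platelet form, held the remainder and was at 116 CPM in TAL against 6.40 in early PT.

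Aldolase splits fructose bisphosphate. Aldoa was at 403 CPM on ND and 381 on HFD in WT in early PT, and 408 and 365 in SP. In PC it was at 1461, 1191, 1671 and 1490 CPM in the same order, with no overlap. The log2 fold change was 1.27 ± 0.10 (SE, n = 4, edgeR adjusted p = 2.67e-13). Aldoa was higher than early PT in each of the 7 segments from thin limb to IC-B, by 0.86 to 1.27. In podocytes it was lower by a log2 fold change of -0.37 ± 0.10 (edgeR adjusted p = 0.00182), but with total UMIs alone it was higher by 0.31.

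Gapdh, the dehydrogenase that yields NADH and serves glycolysis and glucose synthesis alike, was lower in podocytes, TAL, DCT, CNT and IC-A than in early PT. It was at 639 CPM on ND and 924 on HFD in WT in early PT, and 690 and 874 in SP, and at 404, 515, 409 and 462 CPM in DCT. All DCT values lay below all early PT values, with a log2 fold change of -1.04 ± 0.12 (SE, n = 4, edgeR adjusted p = 2.27e-09). It was also lower than early PT with no overlap in TAL (-0.99) and CNT (-0.86). In PC and thin limb the fit gave -0.42 and -0.55 but total UMIs alone gave 0.21 and 0.15, so no direction is drawn there. Gapdh and several other members have many near-identical pseudogene copies, and how reads shared with those copies were counted was not examined.

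**Figure D2:**
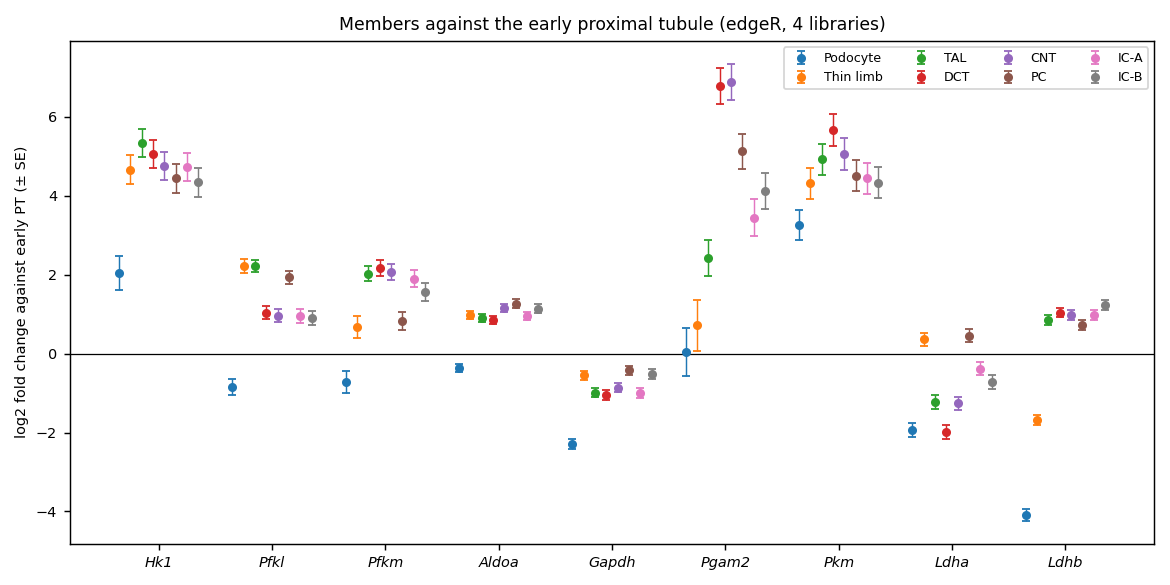
Log2 fold change against early PT (vertical axis, edgeR, bars are SE from the fit over all segments, n = 4 libraries) of the 9 tested members in 8 segments, given by colour. Hk1 and Pkm sit above 4 in all 7 tubule segments, Pgam2 spreads from 0.04 in podocytes to 6.90 in CNT, and Gapdh lies below 0 in all 8, although in PC and thin limb it is above 0 with total UMIs alone.

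Phosphoglycerate mutase moves the phosphate group of phosphoglycerate, and Pgam2, its muscle form, was the member with the most restricted pattern. In DCT it was at 576 CPM on ND and 667 on HFD in WT, and 560 and 712 in SP. In CNT the values were 619, 646, 653 and 778 CPM, overlapping those of DCT (log2 fold change 0.11 ± 0.32, edgeR adjusted p = 0.888). In early PT they were 4.58, 9.03, 2.71 and 2.26 CPM. DCT exceeded early PT by a log2 fold change of 6.79 ± 0.46 (SE, n = 4, edgeR adjusted p = 1.7e-15), CNT by 6.90 and TAL by 2.43. The rise from TAL to DCT was 4.36 ± 0.37 (edgeR adjusted p = 1.08e-11). From CNT to PC Pgam2 fell by 1.77 ± 0.34 (edgeR adjusted p = 5.58e-05), and in IC-A it was lower than in PC by 1.68 ± 0.36 (edgeR adjusted p = 0.000305). The order CNT and DCT, then PC, IC-B and IC-A held with no overlap between DCT and PC, PC and IC-B, or IC-B and IC-A, although IC-B and IC-A did not differ by the test (edgeR adjusted p = 0.274). Podocytes and thin limb did not differ from early PT (edgeR adjusted p = 0.957 and 0.351). The 4 DCT markers summed to 3864 to 4951 CPM in CNT, against 10480 to 11040 in DCT itself. As adjacent classes, DCT and CNT were not set apart as mixed where a cell had markers of both. The part of such cells in the Pgam2 level of CNT was not tested.

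The share of cells with a Pgam2 UMI was 81.2% on ND and 86.9% on HFD in WT in DCT, and 86.1% and 85.5% in SP. Endothelial cells, which stand for background, had 2.07% to 4.36%, at median depths of 2257 to 3773 UMIs against 4942.5 to 8614 in DCT. After thinning to 1000 UMIs per cell the DCT shares were 39.3% to 48.5% and the endothelial shares 0.749% to 1.47%. Pgam2 took 71.6% to 74.7% of phosphoglycerate mutase UMIs in DCT, 77.1% to 80.4% in CNT, 42.0% to 53.5% in PC and 1.27% to 4.64% in early PT. Pgam1, the form of most tissues, did not differ between DCT and early PT (log2 fold change 0.15 ± 0.10, edgeR adjusted p = 0.216). Between DCT and early PT the share thus moved with Pgam2. Pgam1 was called lower in CNT than in DCT, whereas Pgam2 was not called there.

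Pkm encodes the pyruvate kinase of muscle and most other cells and Pklr that of liver and red cells. Pkm was at 8.91 CPM on ND and 22.5 on HFD in WT in early PT, and 12.0 and 10.6 in SP. In DCT, its highest segment, it was at 726, 792, 710 and 952 CPM, and no other segment overlapped these values. The log2 fold change was 5.67 ± 0.40 (SE, n = 4, edgeR adjusted p = 8.44e-15). DCT exceeded TAL in all 4 libraries, with log2 ratios of CPM from 0.44 to 0.92. The fit, with its SE pooled over all segments, gave 0.74 ± 0.32, which did not pass the test (edgeR adjusted p = 0.0854). Without WT-HFD it passed, at 0.72 (edgeR adjusted p = 0.000726). Podocytes were at 202 ± 4.89 CPM (SD, n = 4). Pkm took 50.9% to 71.3% of pyruvate kinase UMIs in early PT, from as few as 55 UMIs, and 99.0% or more in each library and segment from thin limb to IC-B. Pklr fell from 7.69 CPM in early PT to 0.167 CPM in DCT (log2 fold change -5.52 ± 0.64, edgeR adjusted p = 1.82e-09). Splice forms of Pkm cannot be separated by 3′ counts.

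The lactate dehydrogenase subunits had different orders along the nephron. Ldha was highest in PC, at 599 CPM on ND and 417 on HFD in WT, and 874 and 512 in SP, and in thin limb, at 577, 501, 725 and 546 CPM. It was lowest in DCT, at 94.9, 82.6, 82.5 and 74.6 CPM. No DCT value reached any of the early PT values of 260 to 291 CPM, and the log2 fold change was -1.98 ± 0.17 (SE, n = 4, edgeR adjusted p = 2.58e-12). Ldha fell from TAL to DCT by 0.75 ± 0.17 (edgeR adjusted p = 0.000884), rose from DCT to CNT by 0.72 ± 0.18 (edgeR adjusted p = 0.00274) and rose from CNT to PC by 1.71 ± 0.17 (edgeR adjusted p = 4.35e-10). In IC-A it was lower than in PC by 0.84 ± 0.17 (edgeR adjusted p = 0.000121). By library, the log2 ratio of Ldha CPM in DCT to TAL ran from -1.48, in SP-ND, to -0.36. The smallest fold change of DCT against TAL under an alternative setting was -0.45. The lower value in IC-A than in early PT (log2 fold change -0.38, edgeR adjusted p = 0.0472) turned to 0.17 with total UMIs alone.

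Ldhb stepped up from PT to TAL and stayed high. It was at 756 CPM on ND and 936 on HFD in WT in early PT, and 852 and 786 in SP, and at 1561, 1960, 1636 and 2091 CPM in TAL. TAL was higher with no overlap, by 0.86 ± 0.12 on the log2 scale (edgeR adjusted p = 2.21e-07). IC-B was highest at 2722 ± 288 CPM (SD, n = 4), with a log2 fold change of 1.23 ± 0.13 over early PT (edgeR adjusted p = 1.19e-10). Among TAL, DCT, CNT, PC, IC-A and IC-B no pair compared by the test differed in Ldhb (edgeR adjusted p = 0.128 to 0.787). Thin limb and podocytes were below early PT, by -1.67 ± 0.13 and -4.09 ± 0.14 (edgeR adjusted p = 1.18e-13 and 1.51e-23). The share of Ldhb in lactate dehydrogenase UMIs was 95.2% to 96.7% in DCT, 74.0% to 76.3% in early PT, 71.5% to 81.5% in PC, 37.0% to 52.5% in thin limb and 40.3% ± 6.18 (SD, n = 4) in podocytes. The shares in DCT lay above those of the other 4 segments just named, and those in PC overlapped early PT.

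**Figure D3:**
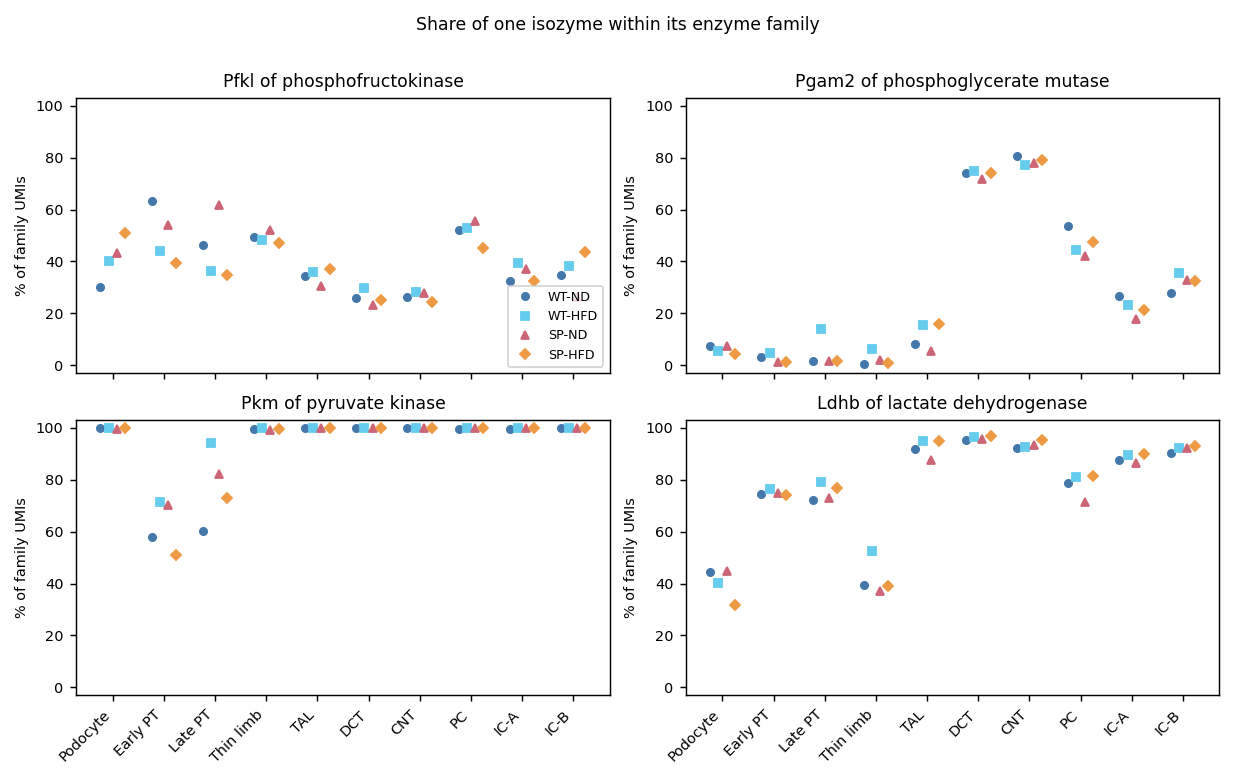
Share of UMIs (vertical axis, percent) that 1 isozyme takes of its enzyme family in each segment, with 1 point per library. Pgam2 is over 70% in DCT and CNT alone among the segments, and Ldhb drops below 53% in podocytes and thin limb.

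The windows around the starts of Ldha, Ldhb and Pgam2 are shown as examples of members with different orders: Ldha lowest in DCT, Ldhb high from TAL onward, and Pgam2 highest in DCT and CNT. They run from 250 bases before to 50 after the start in RefSeq (GRCm38.p6). Capitals mark ACGTG on either strand, the core letters of the hypoxia response element and part of some E-boxes. The windows are chr7:46845554-46845853 (plus strand, the first of 2 listed starts of Ldha), chr6:142507908-142508207 (minus strand, Ldhb) and chr11:5803747-5804046 (minus strand, Pgam2).

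Ldha: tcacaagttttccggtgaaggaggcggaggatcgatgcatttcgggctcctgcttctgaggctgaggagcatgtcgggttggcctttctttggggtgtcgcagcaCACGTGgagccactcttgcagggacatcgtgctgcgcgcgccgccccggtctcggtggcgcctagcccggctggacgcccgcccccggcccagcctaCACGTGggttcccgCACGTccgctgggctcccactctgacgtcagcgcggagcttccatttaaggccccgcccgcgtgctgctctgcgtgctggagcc

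Ldhb: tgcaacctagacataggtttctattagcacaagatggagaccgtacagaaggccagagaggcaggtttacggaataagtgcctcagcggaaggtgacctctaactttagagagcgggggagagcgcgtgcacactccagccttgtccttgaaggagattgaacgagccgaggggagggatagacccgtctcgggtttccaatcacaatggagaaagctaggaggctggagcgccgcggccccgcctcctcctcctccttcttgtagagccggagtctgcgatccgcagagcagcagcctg

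Pgam2: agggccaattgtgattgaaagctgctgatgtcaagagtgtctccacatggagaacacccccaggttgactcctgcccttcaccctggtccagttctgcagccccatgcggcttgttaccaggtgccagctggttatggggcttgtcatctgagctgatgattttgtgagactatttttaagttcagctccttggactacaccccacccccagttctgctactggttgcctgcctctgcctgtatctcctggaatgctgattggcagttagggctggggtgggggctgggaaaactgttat

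The Ldha window held 5 matches, overlapping ones counted apart, and the Ldhb and Pgam2 windows 0. The window of the second Ldha start also held 0. Of all 32851 windows of this length, 19.6% held ACGTG. Of the 18 windows of the members, 9 held it, from 7 members with different orders. These included Pkm, highest in DCT, and Hk1, highest in TAL, with 2 matches each in a window. Among the 9, 2 Aldoa windows overlap and hold the same match. Of the 18, 0 held AAGGTCA, the letters of an oestrogen-related receptor half-site, against 4.72% of all windows. A match in letters is not evidence of binding.

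Across the 40 sums of segment and library, the log2 levels of Hk1 and Pkm followed each other most closely of the members (Pearson r = 0.97, a description, since the sums share libraries and depth). The genes most like Hk1 were Nipsnap2 (0.97), Pkm and Mpnd (0.96). For Pkm they were Pbxip1 (0.97), Hk1 and Mpnd (0.96), for Pgam2 Tmem52b (0.96), Ltc4s (0.95) and Clu (0.95), and for Aldoa Cldn7 (0.97), Gstm2 (0.96) and Lgals3 (0.96). Ldha was nearest to Arhgap27os2 (0.93), Veph1 (0.90) and Pax8 (0.87), and Ldhb to Arhgef2 (0.96), Tmprss2 (0.95) and Slc25a5 (0.94). Pfkl was nearest to Ccni, Il17re and Scin (0.92 to 0.93), Pfkm to Rap1gap2, Cytip and Pdk1 (0.94 to 0.95) and Gapdh to Krt8, Gipc2 and Osbpl3 (0.86 to 0.88). For Hk2, at few UMIs, Trim61, Slc16a3 and Anxa9 had r of 0.80 to 0.82. Between Ldha and Ldhb r was 0.08.

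Of 13 other glycolytic enzymes, 11 were tested, with 9 higher and 1 lower in TAL than in early PT, 5 and 2 in DCT, and 6 and 1 in PC, and with median log2 fold changes of 0.66, 0.25 and 0.46. Higher in all 3 segments were Pfkp (3.97, 3.06 and 2.63), the brain aldolase Aldoc (4.56, 4.20 and 4.27), Hkdc1 (2.98, 7.04 and 4.10), Eno1 (0.83, 0.64 and 0.59) and Pgk1. Pklr (-5.39, -5.52 and -4.69) was lower. Of the 16 regulators, transporters and pyruvate-handling genes, 15 were tested, with 9 higher and 3 lower in TAL, 10 and 1 in DCT, and 8 and 4 in PC. Over all genes, 63.3%, 61.3% and 64% were called in the 3 segments, in either direction, so that the 7 of 11 enzymes called in DCT and in PC were near the share of all genes.

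Slc16a7, a monocarboxylate carrier with high affinity for pyruvate, was at 1002 CPM in DCT and 8.35 in early PT (log2 fold change 6.68 ± 0.37, edgeR adjusted p = 9.51e-18). Slc16a1, the widespread lactate carrier, was opposite, at 0.387 and 32.8 CPM (-6.49 ± 0.36, edgeR adjusted p = 7.25e-18). Slc2a1, the GLUT1 glucose carrier, and Pfkfb3, which makes the activator of phosphofructokinase, were highest in PC. They were at 243 and 113 CPM there and 8.33 and 1.14 in early PT (4.14 ± 0.20 and 6.12 ± 0.33, edgeR adjusted p = 1.94e-19 and 3.74e-18). Slc16a3, the lactate exporter of glycolytic cells, was found in PC and thin limb, the 2 segments where Ldha was highest. In PC it was at 4.85 CPM on ND and 4.84 on HFD in WT, and 19.7 and 6.39 in SP, so SP-ND stood above the others. In thin limb it was at 7.26 to 11.4 CPM, and in DCT at a mean of 0.303. The 6 PC markers summed to 1159 to 1437 CPM in thin limb, against 68.8 to 99.3 in TAL and 19711 to 21758 in PC. Thin limb and PC counted as adjacent, so cells with markers of both were kept. Their part in the thin limb levels of Slc16a3, Ldha and Pfkl was not tested. Pdk1, a kinase that shuts off pyruvate dehydrogenase, was at 72.3 CPM in DCT and 4.38 in early PT (3.95 ± 0.19, edgeR adjusted p = 3.47e-19). The other listed kinases of this family differed in pattern. In DCT and early PT, Pdk2 was at 43.8 and 36.6 CPM, Pdk3 at 15.0 and 17.8, and Pdk4 at 27.5 and 3.85.

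Late PT was called higher than early PT for Hk1 (1.28 ± 0.44, edgeR adjusted p = 0.0397) and Pkm (1.15 ± 0.39, edgeR adjusted p = 0.0367), where 18.8% of all genes were called. Both calls rested on WT-HFD. In late PT Hk1 was at 0.812 CPM on ND and 21.6 on HFD in WT, and 4.23 and 4.58 in SP, and Pkm at 4.74, 83.0, 13.0 and 17.8 CPM. WT-HFD lay far above the early PT range for both genes, and WT-ND lay below it. Without WT-HFD the log2 fold changes were -0.37 for Hk1 and 0.00 for Pkm (edgeR adjusted p = 0.591 and 1), and with a stricter marker rule 0.18 and 0.33 (edgeR adjusted p = 0.848 and 0.343). The other 7 tested members did not pass in the full fit.

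Between libraries there is no test, since each condition has 1 library. A member was called different in a segment where 2 libraries differed by 2-fold or more on at least 20 UMIs in all. Between WT-HFD and WT-ND this held for 9 of 90 pairs of member and segment (6.83% of such pairs over all genes), between SP-HFD and SP-ND for 3 of 87 (5.64%), between SP-ND and WT-ND for 3 of 89 (4.18%) and between SP-HFD and WT-HFD for 7 of 90 (4.76%). The shares of the members were 10%, 3.45%, 3.37% and 7.78%.

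In the PT, WT-HFD was above WT-ND for Hk1, Pkm and Pgam2 in late PT. The log2 ratio was 4.74 for Hk1 (95% interval 3.57 to 6.21, counting error only), 4.13 for Pkm (3.63 to 4.67) and 3.49 for Pgam2 (2.84 to 4.22), where 10.7% of all genes were past 2-fold higher. In early PT, the Pkm and Pfkm ratios were 1.34 and 1.05, where 4.67% of all genes were past 2-fold higher. Both fell within 2-fold under the stricter marker rule (0.16 and 0.88) and with segments set by clusters (0.66 and 0.54), and Pfkm also with TMM scaling between libraries (0.94). Markers of other classes moved with these values. In late PT they summed to 608 CPM on ND and 2950 on HFD in WT, and 660 and 788 in SP, and 68 of 73 were higher in WT-HFD than WT-ND. In early PT the sums were 623, 931, 781 and 636 CPM in the same order. Under the stricter marker rule the late PT ratios were 1.81 for Hk1, 1.19 for Pkm and 1.67 for Pgam2. The part of those markers' cells or RNA in the ratios was not tested. From WT-HFD to SP-HFD the same 3 members fell in late PT, by log2 ratios of -2.24, -2.22 and -3.39. Of all genes there, 11.4% were past 2-fold in either direction. The ratios of Hk1 and Pkm turned to 0.75 and 0.74 under the stricter rule. SP-ND exceeded WT-ND in late PT for Hk1 and Pkm (2.38 and 1.45), on 6 and 35 UMIs in WT-ND, where 3.11% of all genes were past 2-fold higher. Both ratios turned negative (-0.10 and -0.64) as means over cells.

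**Figure D4:**
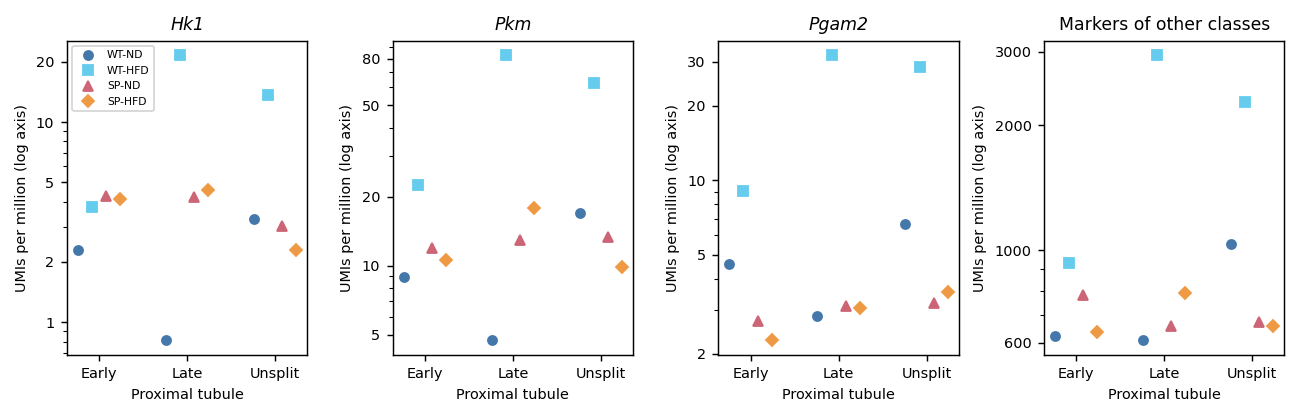
Hk1, Pkm, Pgam2 and the summed markers of other classes (CPM, log axis) in early, late and unsplit proximal tubule, with 1 point per library. WT-HFD is highest of the 4 libraries in late and unsplit cells in every panel.

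Pgam2 in TAL was the member and segment where both genotypes were called in the same direction on HFD. It was at 18.3 CPM on ND and 47.7 on HFD in WT, and 15.3 and 52.1 in SP, so both HFD libraries lay above both ND libraries. The log2 ratio was 1.38 in WT (95% interval 1.06 to 1.71) and 1.76 in SP (1.48 to 2.05). Of 11221 genes with enough UMIs in TAL, 0.428% were past 2-fold higher in both. DCT markers in the same cells moved alike. Slc12a3, the thiazide-sensitive cotransporter of DCT, was at 72.2 CPM on ND and 166 on HFD in WT, and 52.4 and 280.2 in SP, and Pvalb at 63.9, 200, 51.3 and 258 CPM. The 4 DCT markers summed to 214, 431, 174 and 621 CPM, against 10480 to 11040 CPM in DCT itself. Markers of CNT, where Pgam2 is as high as in DCT, did not move alike. The 5 CNT markers summed to 766 CPM on ND and 568 on HFD in WT, and 1039 and 1089 in SP. Among them the calcium-binding S100g was at 215, 76.4, 179 and 69.5 CPM, lower in both HFD libraries, and Calb1 at 22.8, 43.1, 22.3 and 51.1 CPM, higher in both. The part of DCT or CNT cells or RNA in the Pgam2 ratio was not tested. Under the stricter marker rule the ratios were 1.76 and 1.96, and with segments set by clusters 0.67 and 1.66. As means over cells they were 0.73 and 0.75, and with 10% ambient RNA subtracted 2.15 and 3.15. A Pgam2 UMI was found in 6.75%, 12.7%, 8.04% and 12.6% of TAL cells, or in 2.37%, 2.75%, 2.39% and 3.79% after thinning. In DCT, where Pgam2 is high, the HFD libraries were 667 and 712 CPM and the ND libraries 576 and 560.

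Ldha in TAL was higher in SP-ND than in the other libraries, at 230 CPM against 135 in WT-ND, 106 in WT-HFD and 110.0 in SP-HFD. The log2 ratio of SP-HFD to SP-ND was -1.07 (95% interval -1.18 to -0.95), -0.76 under the stricter marker rule and -1.68 with segments set by clusters. Of all genes in TAL, 4.03% were past 2-fold in either direction between these libraries. Markers of PC and thin limb, the segments where Ldha was highest, summed to 68.8 and 20.2 CPM in SP-ND TAL, against 71.1 to 99.3 and 14.2 to 26.4 CPM in the other libraries, and their part in the ratio was not tested. SP-ND was also the highest library for Ldha in PC and thin limb and for Pfkl in TAL, PC and thin limb. A UMI of Ldha was found in 59.9% of TAL cells in SP-ND and 39.1% to 42.6% in the others, and after thinning in 18.8% against 8.57% to 10.2%.

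**Figure D5:**
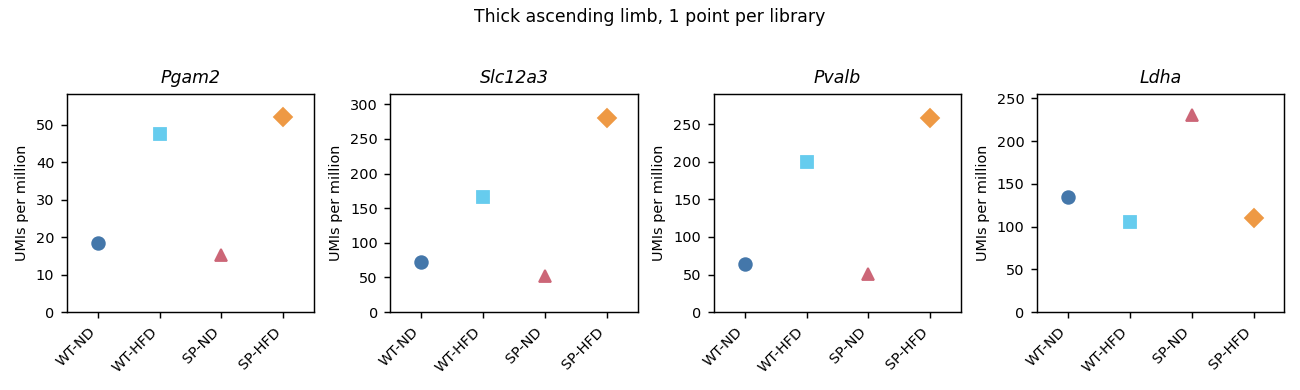
Pgam2, the DCT markers Slc12a3 and Pvalb, and Ldha in thick ascending limb cells (CPM, linear from 0), with 1 point per library. Pgam2, Slc12a3 and Pvalb are higher in both HFD libraries than in both ND libraries, and Ldha is highest in SP-ND.

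In PC, the median log2 ratio of WT-HFD to WT-ND over the 9 members with enough UMIs was -0.48, against -0.15 for all genes. In SP the same medians were -0.17 and -0.05. Only Pfkm passed 2-fold there (-1.04, from 24.3 to 11.8 CPM), where 7.63% of genes passed in either direction, and it stayed within 2-fold under the stricter marker rule (-0.81), with segments set by clusters (-0.83), with doublets kept (-0.96), with CPM without mitochondrial genes (-0.98) and with TMM scaling between libraries (-0.89). PC markers summed to 20646 CPM in WT-HFD and 19711 in WT-ND, TAL markers to 413 and 178, and general PT markers to 356 and 585, and their part in the ratios was not tested. In thin limb, WT-HFD was above WT-ND for Pgam2 (35.4 and 2.53 CPM) and below it for Pfkm (9.07 and 21.5 CPM), where TAL markers summed to 1496 and 592 CPM and DCT markers to 352 and 67.0 CPM, and the part of those markers was not tested. Of all genes in thin limb, 8.33% were past 2-fold in either direction between these libraries. With segments set by clusters the Pgam2 ratio of 3.81 turned to -1.31, and the Pfkm ratio of -1.24 became -0.94. From WT-HFD to SP-HFD the same 2 genes had log2 ratios of -2.88 and 1.41, where 6.18% of all genes were past 2-fold in either direction. The remaining calls were Pfkl lower in late PT from SP-ND to SP-HFD (20.9 to 9.16 CPM), Pfkm lower in podocytes from WT-ND to SP-ND (9.33 to 3.68 CPM, 25 UMIs), and Pkm and Pgam2 lower in early PT from WT-HFD to SP-HFD (22.5 to 10.6 and 9.03 to 2.26 CPM). Of all genes in late PT, podocytes and early PT, 9.69%, 4.16% and 3.44% were past 2-fold in either direction in these comparisons. As means over cells the Pfkl ratio of -1.19 became -0.75. Under the stricter marker rule the early PT ratio of Pkm, -1.09, turned to 0.23, and that of Pgam2 became -0.80. With doublets kept the Pkm ratio was -0.85. In DCT, CNT, IC-A and IC-B no member passed 2-fold in any of the 4 contrasts.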

How the data were processed

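Kidney single-cell RNA-Seq counts from 4 libraries were analysed, 1 per condition. The deposited counts are UMIs per gene and barcode that the authors made with Cell Ranger and did not normalize. The version is 6.1.2 in the matrix header and 2.1.1 in the submitters' processing notes, which name mm10, and the study's methods name another. The annotation is not given in the sources used here. The study's scDblFinder step and manual removal of doublets were not repeated.

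Cells with 200 to 5000 genes and under 50% mitochondrial UMIs were kept, and the top 0.8% per 1000 cells by similarity to simulated doublets (30 principal components, 2000 variable genes, 50 neighbours) were removed, 2509 in all. For each of 12 marker lists, a cell's UMIs were set against the number its depth gives at the list's mean level over the library's classes. Each class weighed the same in that mean, whatever its number of cells. The cell took the class with the largest Poisson score, given at least 5 UMIs and 3-fold that number. A second, non-adjacent class at the same limits made it mixed (657 cells), and 6013 cells had no class. The scoring rule was set after the data were seen. Before the limits were applied, 1557 cells whose top class was a segment had a fold of 2.5 to 3.5, near that limit. Those below 3 were then given no class, so the 1557 are not all segment cells. In late PT 245 of them were in WT-HFD, against 3 to 17 in the other libraries, and in TAL 245 against 77 to 124. In thin limb WT-HFD had 12, against 12 to 17. Members and lists were chosen with earlier results of these data known.

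UMIs were summed into 40 sums of 10 segments and 4 libraries. Segments were tested in edgeR 4.0.16 (TMM, quasi-likelihood, library block, 15 contrasts, Benjamini-Hochberg adjusted p under 0.05) on 11894 genes, and in DESeq2 1.42.0 as an alternative. On simulated data for TAL against early PT over 11894 genes, 71 of 103 genes changed by 1 log2 unit and 97 of 97 changed by 2 were recovered, with 5 false calls. Only those genes differed there, and only in TAL. All genes had the same dispersion, and libraries differed in depth alone. The real contrast called 63.3% of genes, so the simulation does not give its recovery or its false calls. Libraries were compared by log2 ratios of CPM with exact conditional binomial intervals, and no p-value. A library's count of 0 allows up to 3 UMIs. All intervals cover counting error only. The named genes were all members, the 3 genes most like each by Pearson r of log2(CPM + 1), members past 2-fold between libraries, Slc5a2, and 2 lists of pathway genes, from which examples were chosen after their values were seen. Alternatives were a 30% mitochondrial limit, at least 1000 UMIs per cell, doublets or mixed cells kept, a 6-fold marker rule, clusters, other scalings and filters, subtraction of 10% ambient RNA and leaving out each library. Promoter windows are from RefSeq. Some genes of the pathway list are not reported here, and counts over that list leave them out.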

Additional observations from a re-analysis of the deposited data

Results flagged for a closer look

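The log2 ratio of high-fat to normal diet had intervals on opposite sides of 0 in the 2 genotypes for 4 pairs of member and segment. Pairs with at least 20 UMIs numbered 90 in WT and 87 in SP. The rule was not applied to all genes, so whether 4 is many cannot be said. Counting intervals are narrow where UMIs are many, so small ratios can meet the rule. The difference between the genotypes was not tested, since each condition has 1 library, and the intervals cover counting error only. Aldoa in IC-B had ratios of -0.11 in WT and 0.29 in SP. Pgam2 in PC had -0.48 in WT and 0.27 in SP. Ldhb had 0.31 and -0.12 in early PT, and 0.56 and -0.29 in thin limb, in the same order. In thin limb, WT-HFD also had the highest summed TAL markers (1496 CPM against 592 to 1191) and general PT markers (960 against 147 to 516), and their part in the Ldhb ratio was not tested.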

How the results depend on the processing

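Of 2025 recomputed fold changes of members, 1940 kept their side of the threshold and, where called in the main fit, their direction. A further 59 lost the call, 20 gained it, and 6 that the main fit called changed direction. Fold changes called in neither fit were counted as kept whatever their direction. Gapdh in late against early PT, for example, ran from -0.22 to 0.13. Of 206 recomputed library ratios, 166 moved by less than their counting interval, 33 moved further and 7 changed direction. The causes were not tested. With total UMIs alone, the log2 fold change was 0.31 for Aldoa in podocytes, 0.15 for Gapdh in thin limb, 0.21 for Gapdh in PC and 0.17 for Ldha in IC-A. With segments set by clusters it was -0.12 for Pgam2 in TAL against late PT, and the thin limb ratios of Pgam2 were -1.31 (WT-HFD to WT-ND) and 0.43 (SP-HFD to WT-HFD). Under the stricter marker rule, SP-HFD to WT-HFD gave 0.75 for Hk1 and 0.74 for Pkm in late PT and 0.23 for Pkm in early PT. As means over cells, SP-ND to WT-ND in late PT gave -0.10 for Hk1 and -0.64 for Pkm.

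Late against early PT called 2241 genes, 1309 with a 30% mitochondrial limit and 305 with clusters. Its 2 member calls became 0 under both, with doublets kept, under the stricter rule and with total UMIs alone. CNT against DCT called 2 members, 1 with the 30% limit and 0 with clusters, and 2097 genes, 1315 with clusters. DCT against TAL called 3 members and 5 under the stricter rule. IC-B against IC-A called 1 member, 2 under the stricter rule or with no filter on low counts and 0 with clusters, and 1446 genes, 907 with clusters. Pairs past 2-fold between SP-HFD and SP-ND were 3, 9 with clusters and 5 as means over cells. Between SP-ND and WT-ND they were 3, 5 with the 30% limit and 1 with doublets kept, and between SP-HFD and WT-HFD 7, and 3 under the stricter rule. Without thinning, the shares of DCT cells with a Pgam2 UMI were 81.2%, 86.9%, 86.1% and 85.5%, the WT pair first and ND before HFD.

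Leaving out 1 library at a time, late against early PT called 1244 (without WT-ND) to 1614 genes and 0 to 2 members, the 0 without WT-HFD, SP-ND or SP-HFD, and Hk1 ran from -0.37 (without WT-HFD) to 1.58 (without WT-ND). CNT against DCT called 1 to 2 members, and IC-B against IC-A 882 (without SP-HFD) to 1287 genes and 0 to 1 member, the 0 without WT-ND or SP-ND. No paired analysis was possible because each condition has 1 library and the labels carry no shared replicate numbers. The library was a block in the comparison of segments. Depth limits Hk2, with 36 UMIs in all segment cells, and Hk1 in late PT, with as few as 6 UMIs in a library.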
